A study of Mus musculus with 8 samples.

Results

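Adipokines are proteins that fat cells release into the blood or into the surrounding tissue. Leptin reports the size of the fat stores to the brain, adiponectin circulates as multimers and raises insulin sensitivity, and resistin is made by adipocytes in mice. Apelin, visfatin (Nampt), chemerin (Rarres2), meteorin-like and angiotensinogen are made by adipocytes and by other cell types, and act on blood vessels, immune cells or metabolism. The genes of these 8 proteins were described here: Lep, Adipoq, Retn, Apln, Nampt, Rarres2, Metrnl and Agt. They were chosen by name, with earlier results of these data known, as the rows of the expression table with these symbols, 8 of 30387 genes. All 8 had a mean over the limit of 5 normalized counts used for testing.

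RNA had been sequenced from white adipocytes isolated from epididymal fat of male mice. The mice carried floxed Yap1 and Wwtr1 (TAZ) alleles with Cre recombinase under the adiponectin promoter (Ad-Yap/Taz-KO, here KO), or were wild-type littermates (WT), and had received standard diet (SD, called normal chow in the sample labels) or high-fat diet (HFD) for 4 weeks, from week 5 of age according to the data set. There were 4 groups with 2 libraries each and 8 libraries in all. The promoter that drives Cre is that of Adipoq, one of the genes described, and the deletion therefore takes place in cells in which this promoter is active.

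The deposited values, called normalized counts, are whole numbers that the authors obtained by dividing the reads of each gene by a size factor of its library. They summed to between 14.9 and 21.0 M per library, highest in both WT HFD libraries, and the number of reads behind a value was not used. All comparisons were made with limma on log2(normalized count + 1) in 1 fit over 18800 genes. To be called, a gene needed a log2 fold change of 0.59 or more in size and a p of 0.05 or less after Benjamini-Hochberg adjustment over all of them. The comparisons share libraries with each other. The p-values measure only the spread between libraries, which with 2 libraries a group is poorly known. For a single gene an exact permutation test of 2 against 2 cannot give a two-sided p below 0.333. The 2 WT HFD libraries were closer to each other than any other pair (median absolute log2 difference 0.0641 in genes with a mean of at least 1000, against 0.138 to 0.228 in the other pairs), so each comparison was also fitted with their mean as 1 sample, and the values of single libraries are given instead of a mean and SD. Wwtr1 had 5594 and 4743 normalized counts in WT against 2441 and 1957 in KO mice on SD, and 7121 and 6807 against 2060 and 2707 on HFD. Yap1 had 2776 and 2717 against 1669 and 1699 on SD, and 2468 and 2333 against 1549 and 2068 on HFD, where its log2 fold change of -0.42 was not called (adjusted p = 0.059). Markers of adipocytes were abundant in every library, and markers of other cell types were present too. The summed counts of 10 adipocyte markers were 264100 and 269523 in WT SD, 233359 and 323740 in KO SD, 447224 and 438880 in WT HFD, and 263625 and 139109 in KO HFD mice. The second KO HFD library had the lowest sum of the 8.

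On HFD, 5 of the 8 adipokine genes were called lower and 1 was called higher in KO than in WT adipocytes, while on SD only Metrnl was called. Over all genes tested, 15.1% were called lower and 17.1% higher on HFD, and 1.5% lower and 3.21% higher on SD. The median log2 fold change of the 8 genes was -1.15 on HFD and -0.11 on SD, beside 0.10 and -0.01 over all genes tested. In WT mice HFD went with 2 adipokine genes called higher and 1 called lower (8.74% and 9.22% of all genes), and in KO mice with none called higher and 1 called lower (0.383% and 0.691%). For all 8 genes the difference that the deletion made was tested between the diets, and 4 were called lower on HFD than on SD by this interaction and none higher, against 8.73% and 8.69% of all genes. Of the 10 adipocyte markers 7 were called lower by the same interaction and none higher. The calls between the diets in WT mice (Lep, Rarres2 and Agt) and the 4 interactions (Lep, Adipoq, Retn and Rarres2) were each lost with both WT HFD libraries taken as 1 sample, with no filter on low genes and without the first WT SD library. Without either WT HFD library the calls between the diets in WT mice were lost too, and of the interactions only that of Lep was kept. The interactions of Adipoq, Retn and Rarres2 were also lost with scaling to the same total (-0.99, -0.97 and -1.06), without the second KO SD or the second KO HFD library, with values of -0.90, -0.95 and -0.96 without the latter, and those of Adipoq and Retn without the second WT SD library.

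**Figure D1:**
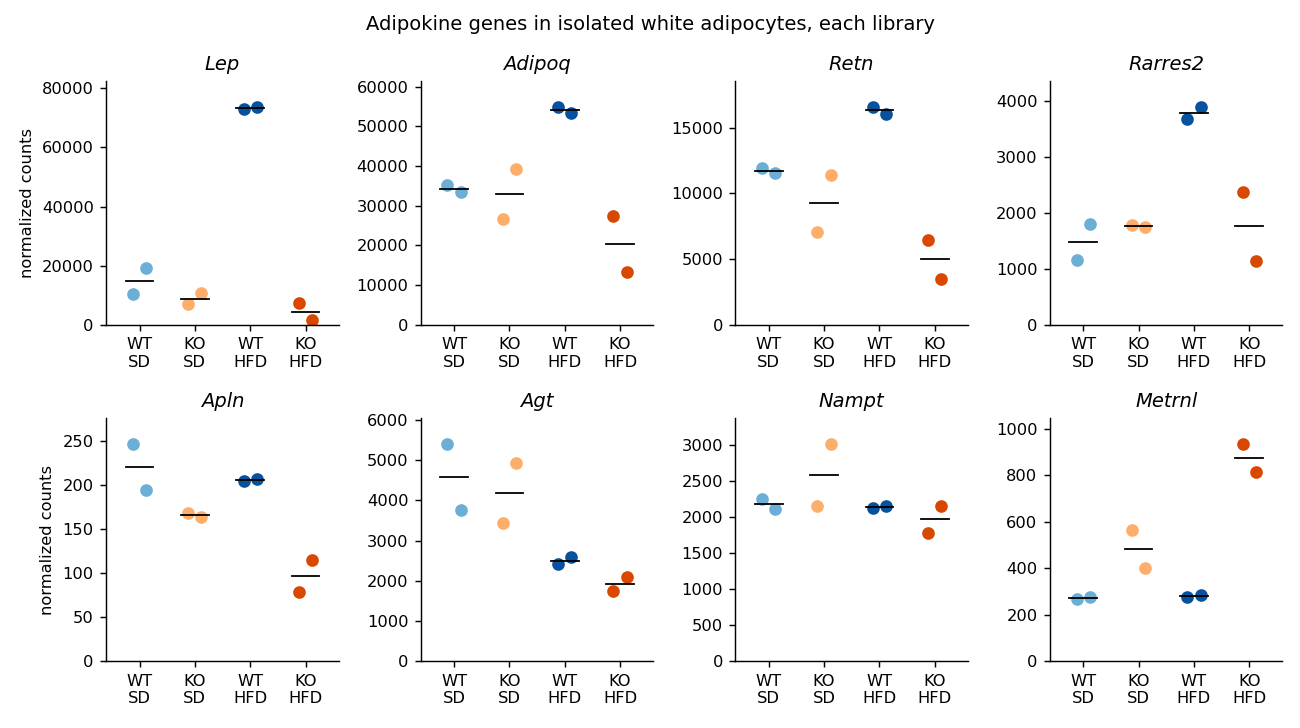
Normalized counts (vertical axis, linear from 0) of the 8 adipokine genes in each of the 8 libraries, grouped by genotype and diet. Points are libraries and lines are group means. Lep stands at 72885 and 73642 in the WT HFD libraries and at 19324 or below in the other 6, and Metrnl is higher in every KO than in every WT library.

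Lep encodes leptin, the hormone that falls in fasting and rises with fat mass. The gene lies on chromosome 6, 29060220 to 29073877 (GRCm38, plus strand, ENSMUSG00000059201). It had 10493 and 19324 normalized counts in WT against 6932 and 10784 in KO mice on SD. On HFD it had 72885 and 73642 in WT and 7257 and 1545 in KO mice. Both WT HFD libraries thus stood apart from the other 6, the ranges of the genotypes overlapped on SD, and both KO HFD libraries lay below both WT SD libraries.

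Leptin transcripts were on average 16.6-fold higher in WT than in KO adipocytes on HFD. The log2 fold change of KO against WT was -4.45 (0.52 standard error, SE, limma adjusted p = 4e-05), and it stayed between -5.57 and -3.34, and called, when each library was left out in turn. The value without the second KO HFD library was the weaker of these limits. On SD the log2 fold change was -0.72 (95% interval -1.84 to 0.40, adjusted p = 0.54), so a lower level could be neither shown nor excluded at this size. In WT mice Lep was higher on HFD by 2.36 log2 units (SE 0.52, adjusted p = 0.0091), on average 4.91-fold. Its adjusted p reached 0.12 over the other settings. In KO mice the log2 difference between the diets was -1.37 (95% interval -2.49 to -0.25), which was not called (adjusted p = 0.22). It ran from -2.48 without the first KO HFD library, where it was called (adjusted p = 0.0024), to -0.25 without the second. The interaction of genotype and diet was -3.73 (SE 0.73, adjusted p = 0.0079). Its adjusted p was at most 0.066 over the other settings.

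Lep made up 0.347% and 0.354% of all normalized counts in the WT HFD libraries, and 0.0422% and 0.0104% in the KO HFD libraries. Per kilobase of exon it ranked 72 in WT SD among 18750 genes with a known length, 17 in WT HFD and 285 in KO HFD mice.

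Adipoq encodes adiponectin (chromosome 16, 23146536 to 23158028, plus strand, ENSMUSG00000022878). It had 35132 and 33392 normalized counts in WT against 26648 and 39149 in KO mice on SD, and 54830 and 53308 against 27322 and 13284 on HFD. The genotypes did not overlap on HFD, and on SD the KO libraries lay on either side of both WT libraries. On HFD the log2 fold change was -1.51 (SE 0.29, adjusted p = 0.0017), a 2.66-fold lower mean, and it was -0.99 without the second and -2.03 without the first KO HFD library, called in both cases. On SD it was -0.09 (95% interval -0.71 to 0.54, adjusted p = 0.92). The diet differences of 0.66 in WT (adjusted p = 0.12) and -0.76 in KO mice (adjusted p = 0.23) were not called. The former was called without either KO HFD library (adjusted p = 0.022 in both cases) and with only the 2 WT groups fitted (adjusted p = 0.0012), and the latter, between -1.28 and -0.24 with a library left out, was called without the first KO HFD library (adjusted p = 0.0088). Their difference, the interaction, was -1.42 (SE 0.41, adjusted p = 0.033), with adjusted p-values up to 0.13 over the alternatives and a value of -0.057 (adjusted p = 0.92) under the adipocyte marker scaling described further on.

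Retn encodes resistin, which in mice is a product of white adipocytes (chromosome 8, 3655770 to 3660110, plus strand, ENSMUSG00000012705). It had 11915 and 11573 normalized counts in WT against 7093 and 11415 in KO mice on SD. On HFD it had 16581 and 16083 in WT and 6488 and 3463 in KO mice. All 4 KO libraries lay below all 4 WT libraries, by a small margin on SD. KO against WT gave a log2 fold change of -1.78 on HFD (SE 0.27, adjusted p = 0.00029), between -2.24 and -1.33 with each library left out, and -0.38 on SD (95% interval -0.96 to 0.19, adjusted p = 0.52). The interaction was -1.40 (SE 0.38, adjusted p = 0.026), with adjusted p-values up to 0.11 over the alternatives, and -0.037 (adjusted p = 0.95) under adipocyte marker scaling.

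These 3 hormone genes, made in mice mainly by fat cells, were called lower together, and Metrnl, described further on, was called in the opposite direction. Their upstream sequences are given to show which of the motifs searched they hold. Of the 8 genes 7 were found in the RefSeq promoter table of GRCm38.p6, all but Rarres2. The 250 bases before the RefSeq start of 4 of them follow, 5′ to 3′ on the strand of the gene, with a palindromic C/EBP motif in capitals where one is present. The RefSeq start of Metrnl lies downstream of the gene start in the deposited table, so its window falls within the gene as that table gives it.
Lep (chr6:29059971-29060220, plus strand): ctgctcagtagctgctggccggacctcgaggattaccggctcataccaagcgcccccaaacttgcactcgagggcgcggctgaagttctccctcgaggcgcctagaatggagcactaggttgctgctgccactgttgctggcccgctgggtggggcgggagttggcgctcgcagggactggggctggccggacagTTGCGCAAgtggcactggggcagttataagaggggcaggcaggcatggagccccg
Adipoq (chr16:23146286-23146535, plus strand): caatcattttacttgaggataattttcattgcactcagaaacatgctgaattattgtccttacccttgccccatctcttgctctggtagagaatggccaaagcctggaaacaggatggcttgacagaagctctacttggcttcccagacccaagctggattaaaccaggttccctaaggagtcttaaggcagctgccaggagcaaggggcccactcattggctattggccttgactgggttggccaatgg
Retn (chr8:3655520-3655769, plus strand): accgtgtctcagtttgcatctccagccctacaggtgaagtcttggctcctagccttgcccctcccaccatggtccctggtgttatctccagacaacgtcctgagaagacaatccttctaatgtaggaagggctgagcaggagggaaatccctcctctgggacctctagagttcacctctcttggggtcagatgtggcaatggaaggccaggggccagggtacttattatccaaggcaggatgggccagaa
Metrnl (chr11:121702177-121702426, plus strand): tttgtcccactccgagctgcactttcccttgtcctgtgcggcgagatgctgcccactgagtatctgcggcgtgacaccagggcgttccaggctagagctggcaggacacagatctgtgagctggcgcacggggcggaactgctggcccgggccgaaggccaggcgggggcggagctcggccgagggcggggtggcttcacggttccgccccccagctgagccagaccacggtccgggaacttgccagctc

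The letters TTGCGCAA, which read the same on both strands and form a binding motif of C/EBP factors, regulators of adipocyte differentiation, began 55 bases before the start of Lep and were in none of the other 6 windows. They were in 0.164% of 32851 RefSeq promoter windows of this length. GGAATG, the core motif of the TEAD factors through which YAP and TAZ bind DNA, searched on both strands, was in none of the 7 windows and in 12.6% of all windows. TATAAA, also searched on both strands, was found only in Agt, 30 bases before the start, and in 12.4% of all windows. A missing match says only that these letters are not in the 250 bases, and the motifs do not overlap each other where found.

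Whether fewer adipocytes or less RNA of these genes in each adipocyte lie behind a lower count cannot be told apart in bulk RNA. On HFD, 9 of 10 adipocyte marker genes were called lower in KO than in WT adipocytes and none higher (15.1% and 17.1% of all genes), with a median log2 fold change of -1.32, and on SD none was called (median -0.10). The level of each adipokine was therefore also set against the mean log2 level of the 10 markers in the same library, a scaling added after the data had been seen. Relative to the markers, Adipoq lay between 1.02 and 1.28 log2 units above their mean in all 8 libraries. Lep was 1.56 and 1.59 above their mean in the WT HFD libraries, -0.83 and -2.08 in the KO HFD libraries, -0.46 and 0.33 in the WT SD and -0.81 and -0.65 in the KO SD libraries. Leptin transcripts thus varied by more than the markers did, and adiponectin transcripts kept a nearly constant distance from them.

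**Figure D2:**
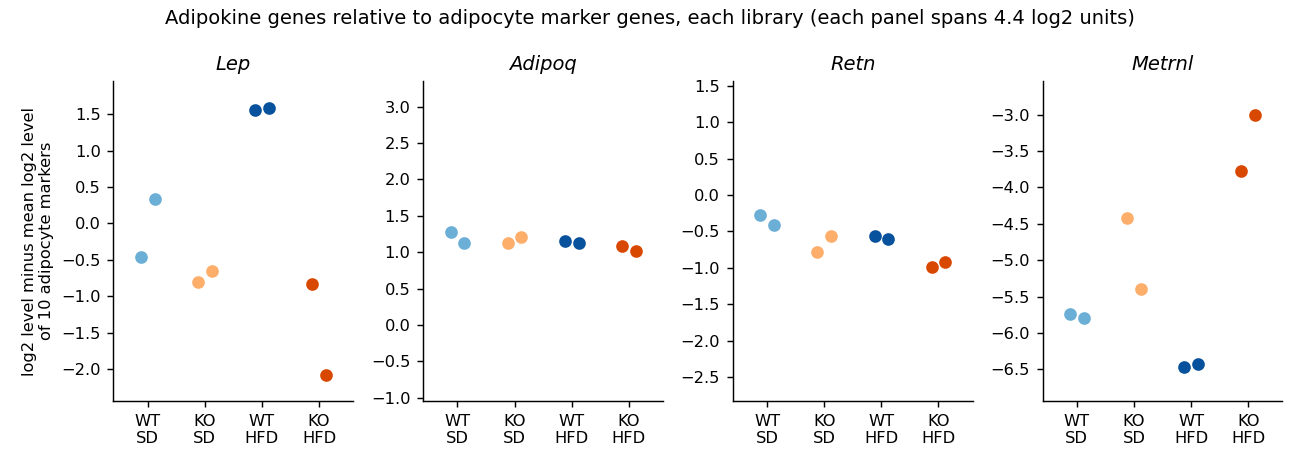
Log2 level of Lep, Adipoq, Retn and Metrnl minus the mean log2 level of 10 adipocyte marker genes (vertical axis, log2 units, the same span in every panel) in each library. Adipoq stays between 1.02 and 1.28, whereas Lep is highest in both WT HFD libraries and Metrnl in both KO HFD libraries.

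With the libraries scaled to the adipocyte markers, the log2 fold change of Lep on HFD was -3.03 and still called (adjusted p = 1.9e-07), and those of Adipoq (-0.09, adjusted p = 0.81) and Retn (-0.37, adjusted p = 0.29) were not. Metrnl was at 3.05 (adjusted p = 2.8e-06). The values of Apln and Rarres2 turned to 0.31 and 0.22, neither called, and Nampt and Agt were called higher, at 1.29 and 1.03. Of the 6 genes called on HFD only Lep and Metrnl thus kept their calls. The interaction of Lep was -2.37 (adjusted p = 0.0027) and that of Metrnl became called at 2.19 (adjusted p = 0.012). The targeted genes moved too, with Wwtr1 at -0.14 (adjusted p = 0.75) and Yap1 called higher in KO mice at 0.995 (adjusted p = 0.029). This scaling moves the median log2 fold change of all genes on HFD from 0.10 to 1.47 and makes 98.2% of the calls higher, against 53.1% with the authors' size factors, so a value near that median is that of a typical gene. Scaling to the same total moved the median to 0.47 and the share of higher calls to 77.2%. The part of the cell composition in the lower counts of Adipoq and Retn was not tested.

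**Figure D3:**
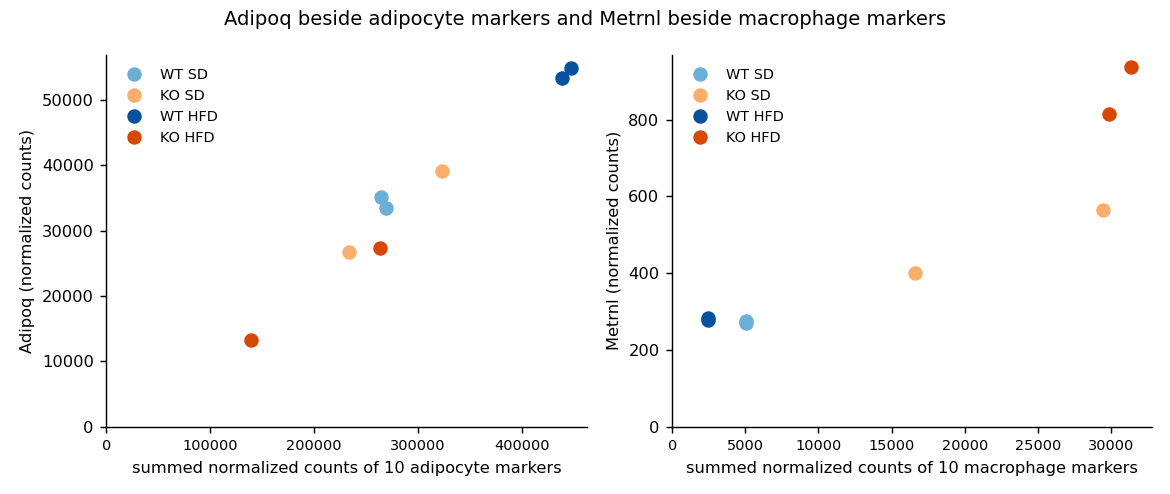
Adipoq against the summed counts of 10 adipocyte markers (left) and Metrnl against those of 10 macrophage markers (right), in normalized counts on linear axes from 0. Points are the 8 libraries. Adipoq is lowest, at 13284, in the library with the lowest adipocyte sum, and Metrnl is at 400 or more in the 4 KO libraries, with macrophage sums of 16563 or more, and at 284 or less in the 4 WT libraries.

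Rarres2 encodes chemerin, a chemoattractant for macrophages and dendritic cells that adipocytes release (chromosome 6, 48569696 to 48572789, minus strand, ENSMUSG00000009281). It had 1157 and 1803 normalized counts in WT against 1787 and 1745 in KO mice on SD, and 3683 and 3894 against 2377 and 1140 on HFD. Both WT HFD libraries stood above the other 6, of which the highest had 2377. On HFD the genotypes differed by a log2 fold change of -1.20 (SE 0.28, adjusted p = 0.0059). It was no longer called without the second KO HFD library, at -0.67 (adjusted p = 0.053), without the second WT HFD library (adjusted p = 0.058) or with both WT HFD libraries taken as 1 sample (adjusted p = 0.053). On SD it was 0.29 (95% interval -0.32 to 0.90, adjusted p = 0.67). In WT mice HFD went with a 2.56-fold higher mean (log2 fold change 1.39, SE 0.28, adjusted p = 0.0067), whereas in KO mice the difference was -0.10 (95% interval -0.71 to 0.51). Under adipocyte marker scaling the difference in WT mice was 0.67 and not called (adjusted p = 0.19). The interaction was -1.49 (SE 0.40, adjusted p = 0.025), with adjusted p-values up to 0.13 over the alternatives, and -0.13 (adjusted p = 0.84) under adipocyte marker scaling. Lrrc61 overlaps 33.6% of the exon bases of Rarres2 on the opposite strand. It had 64 to 158 normalized counts, and whether the counting used the strand is not given in the sources used here.

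Apln encodes apelin, a peptide that acts on blood vessels and the heart (chromosome X, 48025146 to 48034853, minus strand, ENSMUSG00000037010). It was the least abundant of the 8. Its normalized counts were 247 and 195 in WT against 169 and 164 in KO mice on SD. On HFD it had 205 and 207 in WT and 79 and 115 in KO mice. Each KO library lay below each WT library. The log2 fold change was -1.10 on HFD (SE 0.28, adjusted p = 0.009), with adjusted p-values up to 0.088 over the alternatives, and the call did not hold with scaling to the same total, with both WT HFD libraries taken as 1 sample, and without either WT HFD library or the first KO HFD library. On SD it was -0.40 (95% interval -1.003 to 0.21, adjusted p = 0.53). The interaction of -0.71 was not called (adjusted p = 0.23).

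Metrnl encodes meteorin-like, a secreted protein of fat, muscle and activated macrophages (chromosome 11, 121701544 to 121716306, plus strand, ENSMUSG00000039208). Between the genotypes it was the only adipokine gene called higher with the authors' size factors. It had 269 and 275 normalized counts in WT against 565 and 400 in KO mice on SD, and 277 and 284 against 936 and 814 on HFD. The 4 WT libraries lay within 15 counts of each other, and every KO library lay above them. On HFD the mean was 3.12-fold higher (log2 fold change 1.63, SE 0.21, adjusted p = 9e-05), between 1.53 and 1.74 and called with each library left out. On SD it was 1.77-fold higher (log2 fold change 0.80, SE 0.21, adjusted p = 0.047), a call that was lost under 6 of 9 other settings and without either WT SD or either WT HFD library or the first KO SD library, with adjusted p-values up to 0.23 and a log2 fold change of 0.56 without the last of these. The interaction of 0.83 (95% interval 0.19 to 1.47) was not called (adjusted p = 0.07). It was called with scaling to the same total (1.26, adjusted p = 0.019), with upper-quartile scaling (0.96, adjusted p = 0.04) and without the first KO SD library (1.08, adjusted p = 0.022).

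Macrophage markers also differed between the genotypes. The summed counts of 10 of them were 5071 and 5020 in WT SD, 29433 and 16563 in KO SD, 2418 and 2424 in WT HFD, and 31376 and 29854 in KO HFD libraries. Of the 10 markers 9 were called higher in KO mice on each diet, beside 17.1% of all genes on HFD and 3.21% on SD, and none was at 0 in both libraries of a group. Between the diets in WT mice 9 of the 10 were called lower on HFD (9.22% of all genes), while Metrnl differed by 0.04 (95% interval -0.41 to 0.50). The part of macrophages in the Metrnl counts was not tested. Fibroblast and progenitor markers also differed, with 6 of 8 called higher in KO mice on HFD (17.1% of all genes) and sums of 73812 and 79775 against 25936 and 26207. Endothelial markers had 3 of 8 called higher on HFD, read against the same share, with sums of 20925 and 31862 against 15812 and 16338. Mesothelial sums lay between 229 and 794 and lymphocyte sums between 41 and 291 over all libraries. In KO mice on HFD, 1 of 7 mesothelial markers was called higher and 1 lower (17.1% and 15.1% of all genes). Of 5 tested lymphocyte markers 2 were called higher and none lower.

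Agt encodes angiotensinogen, the precursor of the angiotensin peptides (chromosome 8, 124556534 to 124569706, minus strand, ENSMUSG00000031980). It had 5407 and 3771 normalized counts in WT against 3451 and 4928 in KO mice on SD, and 2424 and 2590 against 1761 and 2096 on HFD. All 4 HFD libraries lay below all 4 SD libraries. It was the one of the 8 genes called lower on HFD in both genotypes, with log2 fold changes of -0.85 in WT (SE 0.21, adjusted p = 0.015) and -1.10 in KO mice (SE 0.21, adjusted p = 0.027). The call in WT had adjusted p-values up to 0.17 over the alternatives and the call in KO mice up to 0.26, the latter lost without either WT HFD library, the second KO SD or the second KO HFD library. Under adipocyte marker scaling the difference in KO mice was -0.46 and not called (adjusted p = 0.43). That in WT mice was -1.57 and called (adjusted p = 0.0065), beside a median of -0.77 over all genes. The interaction was -0.25 (95% interval -0.88 to 0.38, adjusted p = 0.58). Between the genotypes Agt differed by -0.38 on HFD (95% interval -0.83 to 0.06, adjusted p = 0.17) and by -0.13 on SD (95% interval -0.58 to 0.31).

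Nampt encodes the enzyme that makes nicotinamide mononucleotide in the NAD salvage pathway and is also found outside cells as visfatin (chromosome 12, 32820335 to 32853369, plus strand, ENSMUSG00000020572). It had 2248 and 2116 normalized counts in WT against 2152 and 3018 in KO mice on SD, and 2133 and 2162 against 1781 and 2160 on HFD. The genotypes overlapped on both diets. No comparison of Nampt was called. The log2 fold change between the genotypes was -0.13 on HFD (95% interval -0.52 to 0.25, adjusted p = 0.6) and 0.23 on SD (95% interval -0.16 to 0.61), and the interval between the diets in WT was -0.41 to 0.36.

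**Figure D4:**
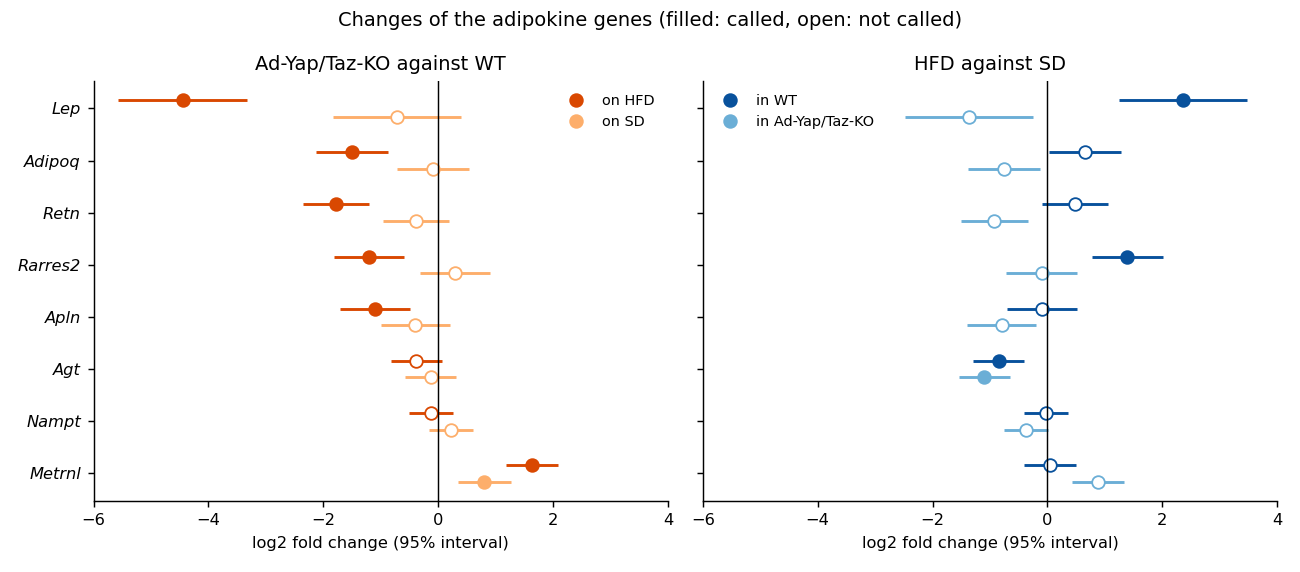
Log2 fold changes with 95% intervals (horizontal axis) of the 8 adipokine genes, for KO against WT on each diet (left) and for HFD against SD in each genotype (right). Filled points were called. On HFD Lep, Adipoq, Retn, Rarres2 and Apln lie below 0 and Metrnl above it, and the right panel shows Lep and Rarres2 higher on HFD in WT mice and Agt lower in both genotypes.

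Compared per kilobase of exon, so that levels of different genes can be set side by side, Adipoq was the highest of the 8 in every group, with a mean of 24809.6 normalized counts per kilobase in WT SD mice. There it was followed by Retn at 7437.6, Lep at 4445.0, Agt at 2426.8, Rarres2 at 557.2, Nampt at 431.7, Metrnl at 171.5 and Apln at 70.2. The libraries of neighbouring genes in this order did not overlap, except for Rarres2 and Nampt. In WT HFD mice Lep moved ahead of Retn and Rarres2 ahead of Agt. In KO HFD mice Lep stood below Retn again and overlapped with Agt, and Metrnl stood above Nampt without overlap. The rank of Metrnl among 18750 genes was 3397 in WT SD and 914 in KO HFD mice.

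The genes most like Lep over the 8 libraries, by Pearson correlation of log2 normalized counts and with means of 50 or more, were Hebp1 (r = 0.9988), Ephb6, Atl3, Rab3d and Fgfrl1 (r = 0.9947). Hebp1 had 2555 and 2527 normalized counts in WT HFD and 820 and 440 in KO HFD mice. Those most like Adipoq were Agpat3 (r = 0.9924), the adiponectin receptor gene Adipor2, Pla2g16, the insulin-responsive glucose transporter Slc2a4, and Apol6 (r = 0.9893). Slc2a4 is also one of the 10 adipocyte markers. These values describe 8 libraries of 4 groups that share size factors and adipocyte marker level.

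Of 11 tested receptor genes, 1 was called higher and 2 lower in KO mice on HFD, beside 17.1% and 15.1% of all genes. Cmklr1, the signalling receptor of chemerin, had 1250 and 1586 normalized counts in WT against 822 and 1034 in KO mice on SD, and 5727 and 5290 against 1160 and 707 on HFD. As for its ligand gene Rarres2, both WT HFD libraries stood above the other 6. Between the genotypes it differed by -2.60 log2 units on HFD (adjusted p = 3.3e-06) and -0.61 on SD (adjusted p = 0.17), and HFD against SD was 1.97 in WT (adjusted p = 0.00025) and -0.03 in KO mice (adjusted p = 0.97). Both calls held in all 17 other fits with the authors' or another size factor, a library left out or another limit, and under adipocyte marker scaling, at -1.18 and 1.24. Ccrl2, a chemerin-binding receptor that does not signal, went the other way, from 114 and 86 in WT to 1461 and 1174 in KO mice on HFD and from 127 and 163 to 906 and 577 on SD. Its log2 fold changes were 3.71 (adjusted p = 7.3e-07) and 2.32 (adjusted p = 2e-04). Macrophage markers, 9 of 10 of which were called higher on each diet, moved with Ccrl2, and their part in its counts was not tested. Adipor2 was lower on HFD at -0.98 (adjusted p = 0.003), with 15283 and 14612 normalized counts in WT against 9558 and 5988 in KO mice. Under adipocyte marker scaling Adipor2 turned to 0.44 and was not called.

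The apelin receptor gene Aplnr, which endothelial cells express, had 695 and 577 normalized counts in WT SD, 329 and 245 in KO SD, 202 and 180 in WT HFD and 254 and 337 in KO HFD mice. WT SD libraries were thus the highest. It was called lower on HFD in WT mice (log2 fold change -1.73, adjusted p = 0.00078) and lower in KO mice on SD (-1.16, adjusted p = 0.013), and at 0.61 on HFD it was not called (adjusted p = 0.061). Under adipocyte marker scaling the call on SD was lost (-1.10, adjusted p = 0.48), and on HFD Aplnr was called higher in KO mice at 2.03 (adjusted p = 0.001). Of the 8 endothelial markers 5 were called lower on HFD in WT mice (9.22% of all genes), with sums of 31949 and 26525 on SD and 15812 and 16338 on HFD. In KO mice on SD the sums were 24731 and 13701, with none of the 8 called between the genotypes, and the part of endothelial cells in the Aplnr counts was not tested. The leptin receptor gene Lepr was low, with 27 to 122 normalized counts, and none of its comparisons was called, though under adipocyte marker scaling it was called higher in KO mice on HFD (2.46, adjusted p = 0.0028) and in the interaction (2.64, adjusted p = 0.035).

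Among 8 genes of leptin signalling, 1 was called higher and 2 lower on HFD between the genotypes, beside 17.1% and 15.1% of all genes, all with changes under 1 log2 unit: the phosphatase gene Ptpn1 rose by 0.67, and Stat5b and the adaptor Sh2b1 fell by 0.67 and 0.60. Of 17 other fits, 13 kept the call of Ptpn1, 13 that of Stat5b and 11 that of Sh2b1. In WT mice HFD went with lower Socs3, Stat5a and Stat3, 3 of the 8 genes where 9.22% of all genes were called lower, and between the genotypes on SD none was called. The calls of Socs3 and Stat5a in WT mice were each kept in 13 of 17 other fits, and that of Stat3 in 12. Under adipocyte marker scaling Stat5b and Sh2b1 turned to 0.75 and 0.82, neither called, and the other 6 genes, Jak2, Stat3, Stat5a, Socs3, Ptpn1 and Ptpn2, were called higher, at 1.54 to 2.08, beside a median of 1.47 over all genes. Of 5 genes for the assembly of adiponectin in the secretory pathway, Gstk1 and Plod3 were called lower on HFD at -1.61 and -1.04 (15.1% of all genes were), and none was called on SD. Under adipocyte marker scaling Gstk1 was at -0.20 and not called (adjusted p = 0.72). Gstk1 acts in adiponectin multimer formation and Plod3, which turned to 0.38 under adipocyte marker scaling, hydroxylates lysines in collagen-like domains. Gstk1 had 470 and 315 normalized counts in WT against 123 and 128 in KO mice on HFD.

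Adiponectin shares its globular domain with the C1q/TNF-related proteins. Of 9 tested genes for these proteins or for subunits of complement C1q, 4 were called higher in KO mice on HFD and none lower, with 17.1% and 15.1% over all genes. Of the 4, 3 were C1qb, C1qc and C1qa, subunits of complement C1q that macrophages make, at 4.48, 3.99 and 3.41. They were also the 3 called higher on SD, where 3.21% of all genes were, and the macrophage marker sums given for Metrnl moved with them. C1qtnf6 was the fourth and the only C1q/TNF-related gene among them, at 2.08, with 29 and 84 normalized counts in WT against 220 and 204 in KO HFD libraries. Of the paralogs of resistin and meteorin only 2 of 3 in the table passed the limit on low values, and neither was called in any comparison.

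Of 9 tested genes that process angiotensins or act beside Agt, 4 were called higher and 3 lower in KO mice on HFD, against 17.1% and 15.1% over all genes. The aminopeptidase genes Anpep and Enpep differed in direction, at 4.48 and -1.30, though Enpep was at 0.12 under adipocyte marker scaling. Ace, the angiotensin-converting enzyme, was higher at 2.01, with 615 and 558 normalized counts in WT against 1999 and 2777 in KO mice. On HFD 9 of 10 macrophage, 6 of 8 fibroblast and progenitor and 3 of 8 endothelial markers were called higher too. Their part in the counts of Anpep and Ace was not tested. Mme, neprilysin, was lower at -1.79, with 2779 and 2740 against 1061 and 597, and was called higher on HFD in WT mice at 1.54. Neither call of Mme held under adipocyte marker scaling, at -0.38 (adjusted p = 0.34) and 0.82 (adjusted p = 0.11). Of 11 genes around Nampt in NAD metabolism 2 were called lower on HFD, where 15.1% of all genes were, and none higher: Nnmt, which methylates nicotinamide, at -1.25 (0.17 under adipocyte marker scaling), and the low-abundance Nmnat2 at -2.73, a call that 9 of 16 other fits kept and adipocyte marker scaling did not (-1.38, adjusted p = 0.2).

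Of 18 other tested genes for secreted factors of fat, 5 were called higher and 8 lower in KO mice on HFD (17.1% and 15.1% of all genes), and 3 and 3 on SD (3.21% and 1.5%). Rbp4, retinol-binding protein, had 1695 and 2156 normalized counts in WT against 1865 and 2935 in KO mice on SD, and 7546 and 7574 against 1942 and 618 on HFD, an order of groups in which, as for Lep, only WT HFD stood out. Its log2 fold change was -2.79 on HFD (adjusted p = 0.00016) and 0.29 on SD (adjusted p = 0.77). Sfrp5, a secreted inhibitor of Wnt signalling, had 3632 and 3956 in WT HFD libraries and 19 to 212 in the other 6, and its log2 fold change on HFD was -6.85. Tnf and Gdf15, a cytokine and a stress-induced hormone, were higher on HFD at 3.70 and 2.89 and on SD at 2.39 and 1.37. The call of Gdf15 on SD was kept in 14 of 17 other fits and not under adipocyte marker scaling (1.43, adjusted p = 0.11). Macrophage markers, 9 of 10 of which were called higher on each diet, moved with Tnf and Gdf15, and their part in these counts was not tested.

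Cfd, which encodes adipsin, a protease of the alternative complement pathway that adipocytes secrete, was called lower on HFD in both genotypes, as Agt was. It had 112117 and 115512 normalized counts in WT against 105691 and 117774 in KO mice on SD, and 44882 and 44048 against 19352 and 16577 on HFD. The log2 fold change of HFD against SD was -1.36 in WT (adjusted p = 0.0011) and -2.64 in KO mice (adjusted p = 0.00014), and the interaction was -1.28 (adjusted p = 0.011), or 0.08 and not called under adipocyte marker scaling. The genotypes overlapped on SD, where the log2 fold change was -0.03 (95% interval -0.45 to 0.40).

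**Figure D5:**
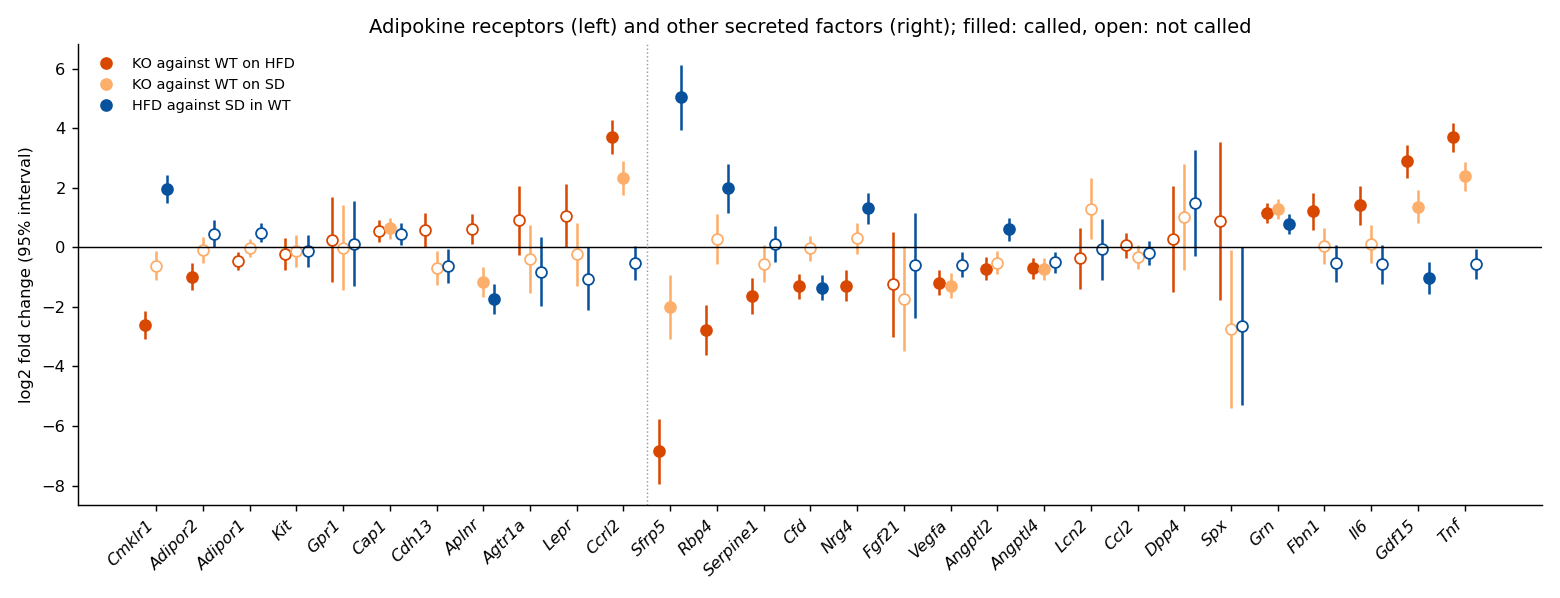
Log2 fold changes with 95% intervals (vertical axis) of the 11 tested adipokine receptor genes (left of the dotted line) and 18 other tested genes for secreted factors (right), in 3 comparisons that share libraries. Filled points were called. Cmklr1, Sfrp5 and Rbp4 are called lower in KO mice on HFD and higher on HFD in WT mice, and Ccrl2, Gdf15 and Tnf are called higher in KO mice on both diets.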

How the data were processed

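Total RNA of isolated white adipocytes was depleted of ribosomal RNA and made into SMARTer Stranded libraries, which were sequenced from one end. Reads were trimmed with Reaper, mapped to GRCm38 with STAR 2.5.2b and assigned to exons with featureCounts 1.5.1 by the authors, who dropped reads that hit more than one gene or place and tested with DESeq2 1.14.1. The values the authors deposited are a score, neither raw counts nor a standard unit: each count was divided by the size factor of its library, then rounded. Whole reads could not be recovered from them, so no count test was run here.

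Genes with a mean of at least 5 were tested (18800 of 30387) with limma 3.58.1 (eBayes, abundance trend, R 4.3.3) on log2(value + 1), which understates changes of low genes. One fit of the 4 groups left 4 residual degrees of freedom beside a prior of 8.59, and p-values were Benjamini-Hochberg adjusted over all genes tested. The contrasts compared KO with WT on each diet and HFD with SD in each genotype, and tested the interaction of both. Samples were grouped by their labels. Replicate numbers shared by groups were not treated as pairs in the reported fit. Positions are those of the deposited table, and 30259 gene identifiers were matched to GENCODE vM21, which gave exon lengths and overlaps. Python 3.11.15, pandas 2.3.3 and matplotlib 3.10.9 were used. Upstream sequences come from RefSeq, GRCm38.p6.

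The 8 genes and the other gene lists were chosen with earlier results of these data known. Named genes are the 8, Yap1, Wwtr1, Lrrc61 for its overlap, the 5 genes most like Lep and Adipoq, and up to 4 called genes of each list with the largest change in a comparison, or every listed gene with a called interaction. Lepr was added after its values had been seen. The C/EBP motif was added after the tests had been planned. The diets started at week 5 according to the data set, and the paper's methods give another week. Alternatives were a pseudocount of 8, no filter or a minimum mean of 50, scaling to equal totals or upper quartiles, a fit of the 2 groups compared alone, the replicate block, both WT HFD libraries taken as 1 sample, calls by the adjusted p alone, and leaving out each library. Adipocyte marker scaling was added after seeing the data.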

Additional observations from a re-analysis of the deposited data

Results flagged for a closer look

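The effect of the deletion differed between the diets for 4 of the 8 adipokine genes by a test of the difference itself (the interaction of genotype and diet, limma adjusted p of at most 0.05). The interaction was -3.73 log2 units for Lep (adjusted p = 0.0079), -1.49 for Rarres2 (adjusted p = 0.025), -1.42 for Adipoq (adjusted p = 0.033) and -1.40 for Retn (adjusted p = 0.026). In each of the 4, both WT HFD libraries were the highest of the 8 libraries. None of the 4 calls was kept with the WT HFD libraries counted as 1 sample. With the same total for every library, Lep alone of the 4 was called, as Metrnl then was in the opposite direction (1.26). With the replicate block 3 of the 4 were called, and the call of Adipoq was lost. With adipocyte marker scaling Lep was called at -2.37, and Rarres2 (-0.13), Adipoq (-0.057) and Retn (-0.037) were not. Relative to the adipocyte markers, Adipoq had nearly the same level in all 8 libraries, while Lep did not, and the part of the cell composition was not tested.

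Of 73 other listed genes tested, 19 had an interaction called by the same test, 11 higher and 8 lower, beside 8.69% and 8.73% of all genes. Markers of cell types had called interactions as well. They were higher in 9 of 10 macrophage, 7 of 8 endothelial and 7 of 8 fibroblast and progenitor markers, and lower in 1 of the last. Of the 10 adipocyte markers 7 were called lower and none higher, with a median interaction of -1.22. The median of the 8 adipokine genes was -1.05. The part of the cell types in the called interactions was not tested. Among receptor genes the interaction was -1.99 for Cmklr1, 1.77 for Aplnr, 1.39 for Ccrl2 and 1.27 for Cdh13, which encodes the adiponectin-binding T-cadherin. For adiponectin assembly it was -1.40 for Gstk1 and -1.26 for Plod3. For the C1q/TNF-related gene C1qtnf6 it was 2.19, and for the complement C1q subunits 2.31 for C1qc, 2.14 for C1qb and 1.52 for C1qa. Beside Agt it was 2.08 for Ace, 1.74 for Anpep and -1.70 for Mme. Among other secreted factors it was -4.85 for Sfrp5, -3.08 for Rbp4, -1.59 for Nrg4, -1.28 for Cfd, 1.52 for Gdf15 and 1.31 for Tnf. The interactions of Cmklr1, Ace, C1qb, C1qc and Sfrp5 were called in all 16 other fits with the planned settings or a library left out, and with both WT HFD libraries taken as 1 sample those of Aplnr and Rbp4 were called as well. Those of Cdh13 and Gstk1 were called in 7, those of Ccrl2 and C1qtnf6 in 8, and that of Tnf in 9 of the 16 fits. With adipocyte marker scaling the interactions of Cmklr1 (-0.63, adjusted p = 0.31), Gstk1 (-0.045), Mme (-0.34), Nrg4 (-0.23), Plod3 (0.10) and Cfd (0.08) were not called.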

How the results depend on the processing

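The count of adipokine genes called between the genotypes on HFD stayed between 4 and 6 under every setting run, but with adipocyte marker scaling the 4 called were Lep (lower) and Metrnl, Nampt and Agt (higher), of which only Lep and Metrnl are among the 6. The log2 fold changes of Lep, Adipoq, Retn and Metrnl on HFD were called in every setting run and in each fit with a library left out, except that Adipoq and Retn were not called with adipocyte marker scaling. The other counts changed. Between the diets in WT mice the count of 3 became 2 with adipocyte marker scaling, where Rarres2 was lost (0.67, limma adjusted p = 0.19). It became 4 with only the 2 groups compared. On SD the count of 1 (Metrnl) went to 0 with no filter, the same total, upper-quartile scaling, only the 2 groups compared, the replicate block, both WT HFD libraries taken as 1 sample and adipocyte marker scaling (0 to 1 with a library left out). In WT mice the count of 3 between the diets went to 0 with no filter and with both WT HFD libraries as 1 sample (0 to 4 with a library left out). In KO mice the count of 1 went to 0 with no filter, only the 2 groups compared, the replicate block, both WT HFD libraries as 1 sample and adipocyte marker scaling (0 to 4 with a library left out). For the interaction the count of 4 went to 0 with no filter and with both WT HFD libraries as 1 sample, and to 2 with the same total and with adipocyte marker scaling, in both Lep and, in the opposite direction, Metrnl, with Adipoq, Retn and Rarres2 lost (0 to 5 with a library left out). At these counts of 0 by limma, an unadjusted p under 0.05 was found for 0 to 2 genes on SD, 3 between the diets in WT mice, 1 to 6 in KO mice and 5 for the interaction.

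With the same total, the uncalled values of Nampt (0.26) and Agt (0.003) turned on HFD between the genotypes, Metrnl (-0.37) between the diets in WT mice, and Nampt (0.074) and Agt (0.18) in the interaction, and with upper-quartile scaling Metrnl turned in WT mice (-0.086). With adipocyte marker scaling, Apln (0.31), Nampt (1.29), Rarres2 (0.22), Agt (1.03), Adipor2 (0.44), Stat5b (0.75), Sh2b1 (0.82), Plod3 (0.38), Enpep (0.12) and Nnmt (0.17) turned on HFD between the genotypes, all called in the reported fit except Nampt and Agt, which became called. Yap1 turned to 0.995 there. So did Adipoq (-0.066), Retn (-0.25), Metrnl (-0.68) and Ero1l (-0.021) between the diets in WT mice, Nampt (0.26) and Rarres2 (0.54) in KO mice, and Apln (0.65), Nampt (1.01), Agt (1.11), Plod3 (0.10) and Cfd (0.08) in the interaction. With a library left out, values crossed 0 for Nampt on HFD between the genotypes (-0.27 to 0.008), for Rarres2 (-0.03 to 0.61), Agt (-0.39 to 0.13), Adipoq (-0.36 to 0.19) and Nampt (-0.019 to 0.47) on SD, for Apln (-0.26 to 0.079) and Nampt (-0.066 to 0.021) between the diets in WT mice, for Rarres2 in KO mice (-0.63 to 0.43) and for Agt in the interaction (-0.51 to 0.008). The cause was not tested.

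Over all genes, the calls on HFD fell from 6053 to 3445 with both WT HFD libraries as 1 sample and rose to 10604 with adipocyte marker scaling. On SD they went from 886 to 438 with no filter, 461 with only the 2 groups compared and 325 with adipocyte marker scaling. Between the diets in WT mice they went from 3377 to 1701 with no filter and 539 with both WT HFD libraries as 1 sample. In KO mice they went from 202 to 330 with a pseudocount of 8, 3 with no filter, 0 with only the 2 groups compared, 112 with the replicate block, 28 with both WT HFD libraries as 1 sample and 49 with adipocyte marker scaling. For the interaction they went from 3274 to 721 with no filter and 517 with both WT HFD libraries as 1 sample. With a library left out the counts lay between 3629 and 6383 on HFD, 381 and 1023 on SD, 628 and 3866 between the diets in WT mice, 14 and 961 in KO mice, and 530 and 4249 for the interaction. The share of higher calls moved from 48.7% to 11.6% between the diets in WT mice and from 49.9% to 80.8% in the interaction with the same total, and to 4.02% and 99.4% with adipocyte marker scaling. Replicate differences of same-numbered libraries correlated between -0.300 and 0.108 over pairs of groups. These values gave no clear sign of pairs, but a correlation over many genes cannot exclude pairs that affect few of them. The 2 libraries of each group and the closeness of the WT HFD pair limit what these fits can show.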
